A study of Rattus norvegicus with 6 samples.

Results

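Cytosolic ribosomal protein genes encode the proteins of the large (60S) and small (40S) subunits of the ribosome in the cytoplasm. They were chosen by symbol: Rpl or Rps followed by a number, with Rplp0, Rplp1, Rplp2 and Rpsa, leaving out 10 rows of Rps6k kinases, 19 rows named as like genes and 15 rows named -ps. This rule took 88 of the 32623 gene rows. One of them, Rps19bp1, encodes a protein that binds RPS19 and is not itself a ribosomal protein, so the results below are for the other 87 rows. They carry 76 symbols, with 53 rows (46 symbols) for the 60S subunit and 34 rows (30 symbols) for the 40S subunit. For 9 symbols there was more than 1 row, together 20 rows.

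RNA was sequenced from primary liver sinusoidal endothelial cells (LSEC), the cells with pores that line the small blood vessels of the liver. They were obtained from Han Wistar rats by an isolation procedure named 4 in 1, and no genetic change or drug is given for any group. Pathological libraries (n = 3) came from LSEC held at 12 mmHg, and physiological libraries (n = 3) from LSEC held at 1 mmHg. In both groups the LSEC shared the perfused Exoliver culture device with hepatocytes, hepatic stellate cells and liver macrophages, under 1.15 dyn/cm2 of flow shear that lasted 48 h. Neither age nor sex is stated, and no label ties a library to an animal or a device run, so each p-value speaks only of the scatter among these 6 libraries, which may be technical.

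A ribosome carries a single copy of nearly every ribosomal protein, and cells make the subunits in matched amounts. The messenger RNAs of these proteins are among the most abundant in a growing cell, and most begin with a C followed by a run of C and T bases. This run, the 5′ terminal oligopyrimidine (TOP) motif, lets the growth-sensing kinase mTORC1 and the RNA-binding protein LARP1 turn their translation on and off together. Translation of these messages is not measured by RNA abundance.

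The TOP motif was searched in the RefSeq promoter sequences of the rat build GRCr8, as a C at the annotated start of transcription followed by at least 4 bases that are each C or T, on the gene's own strand. No other motif was searched. Of the 76 symbols, 61 had an entry, and 23 of these (37.7%) began with the motif, against 2.63% of all 33469 promoters and 3.39% of 59 mitochondrial ribosomal protein genes. A second search asked for a C followed by at least 5 such bases. The whole run had to lie within the 5 bases before the annotated start and the first 12 bases of the transcript. By that search 35 of the 61 (57.4%) held the motif, against 10.7% of all promoters. The sequences below run from 10 bases before the annotated start through the first 20 bases of the transcript, 5′ to 3′. They were picked to show long and short runs in both subunits, and capitals mark the run of C and T from the start.
Rpl10, chrX:157205840-157205869, plus strand: gtgggagcgtCTCTTTTCCTCTggcgcggt
Rpl37a, chr9:81748081-81748110, plus strand: cccgttgcgtCTCTTCCTCTTCgggcttgg
Rps18, chr20:4933735-4933764, plus strand: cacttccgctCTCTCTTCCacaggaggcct
Rps15, chr7:10068096-10068125, minus strand: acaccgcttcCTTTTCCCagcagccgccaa
Rps27, chr2:177964587-177964616, minus strand: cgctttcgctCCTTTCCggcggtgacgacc
Rplp0, chr12:46718371-46718400, minus strand: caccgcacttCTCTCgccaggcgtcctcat
Rps6 and Rpl41 are shown because their annotated starts carry no such run.
Rps6, chr5:106420521-106420550, minus strand: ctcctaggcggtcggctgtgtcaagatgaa
Rpl41, chr7:1563478-1563507, minus strand: ctcggaagtgacgacaccaagcacgccatt
The absence of a run says only that these letters are not at the annotated start.

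Library totals were between 8925149 and 24025406 expected counts. The libraries stood apart by how much RNA of another cell type they held. A list of 26 hepatocyte genes took 0.0479%, 0.0803% and 7.15% of the counts in pathological replicates 1, 2 and 3, and 0.0314%, 5.26% and 3.61% in physiological replicates 1, 2 and 3. Of that list only G6pc was at 0, in physiological replicate 1. Genes of the mitochondrial genome took 0.388% to 5.35% of counts in the pathological and 1.35% to 19.7% in the physiological libraries. All 10 endothelial marker rows were detected in every library, with sums of 829 to 2329 CPM (counts relative to the library total, here unscaled) in pathological and 1700 to 2917 CPM in physiological libraries. The 10 sinusoidal markers summed to 428 to 4151 CPM in pathological and 2105 to 3877 CPM in physiological libraries, and only Cd36 in pathological replicate 2 was at 0. Of the other cells in the device, 13 macrophage markers summed to 43.5 to 1431 CPM in pathological and 828 to 1331 CPM in physiological libraries, and 12 stellate cell markers to 418 to 1300 CPM in pathological and 685 to 1188 CPM in physiological libraries. Of these, Lum was at 0 in every library. Thus 3 libraries (pathological replicates 1 and 2 and physiological replicate 1) held little hepatocyte RNA and 3 held much, and this split crosses the pressure groups.

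Ribosomal protein genes took a large part of each library, and the pressure groups overlapped. Their 87 rows made up 5.97%, 5.68% and 9.81% of the counts in pathological replicates 1, 2 and 3, and 4.83%, 9.57% and 8.86% in physiological replicates 1, 2 and 3. For the first of these shares the 95% Wilson interval ran from 5.96% to 5.98%, which covers counting error only. The mean was 7.15% ± 2.31 in pathological and 7.75% ± 2.56 in physiological libraries (SD, n = 3 each), a difference of -0.597 percentage points, which is smaller than either SD. The highest share was in a pathological library and the lowest in a physiological one. In bulk RNA, fewer cells of a type and less RNA per cell cannot be told apart.

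**Figure D1:**
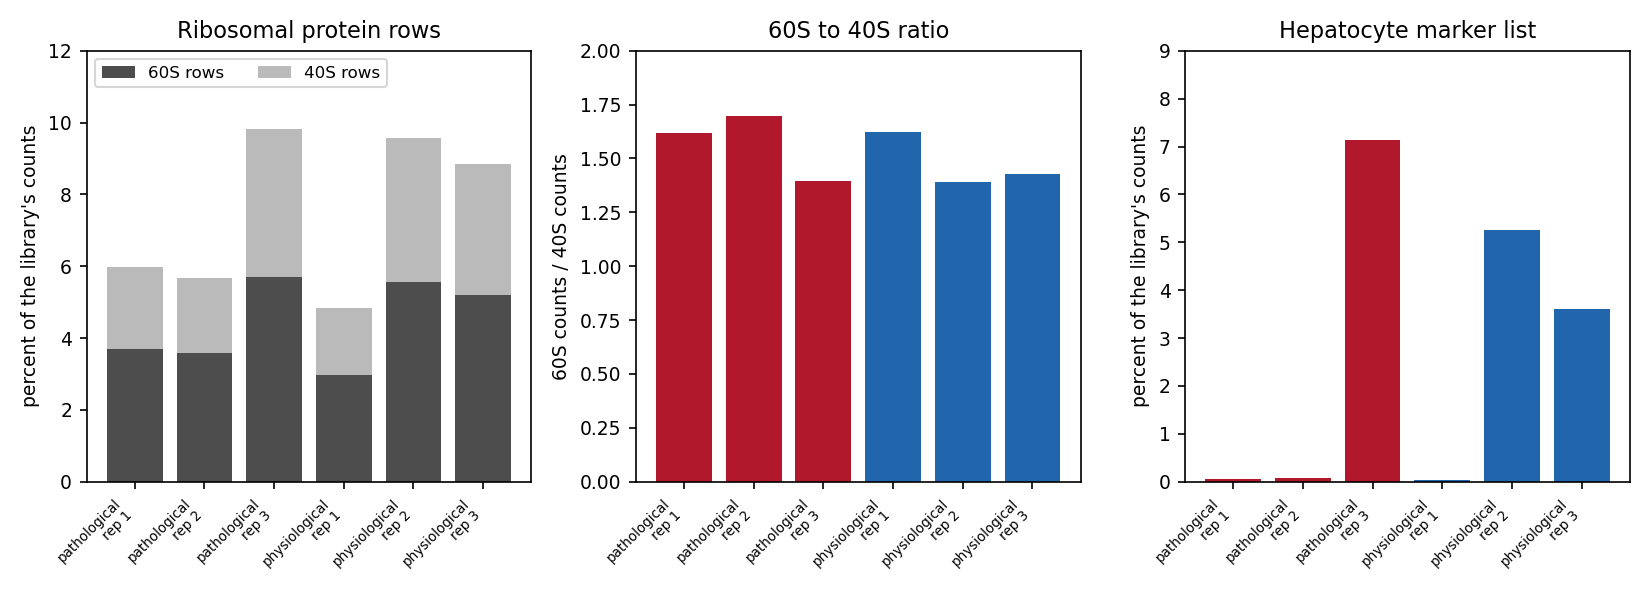
Bars give, for each of the 6 libraries, the percent of counts in 60S and 40S ribosomal protein rows (left), the ratio of 60S to 40S counts (middle) and the percent of counts in the hepatocyte marker list (right), with pathological libraries left of physiological ones. Ribosomal protein shares were between 5.68% and 9.81% in pathological and between 4.83% and 9.57% in physiological libraries, and the 3 libraries with the higher shares are those with 3.61% or more hepatocyte-list counts.

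Within the 3 libraries with little hepatocyte RNA, the shares of pathological replicates 1 and 2 were both above that of physiological replicate 1, by 0.999 percentage points on average. Within the 3 libraries with much hepatocyte RNA, pathological replicate 3 was above the mean of physiological replicates 2 and 3 by 0.600 percentage points. Each of these differences rests on 1 library in 1 of its arms and has no test. The hepatocyte share and the mitochondrial share were both higher in the 3 libraries with the higher ribosomal protein shares. Mitochondrial counts are part of the totals that these shares divide by. By these full totals, the library with the most mitochondrial counts in each set had the lowest ribosomal protein share (physiological replicates 1 and 3). The part of the hepatocyte and mitochondrial shares in the result was not tested. With mitochondrial-genome genes taken out of the totals, the ribosomal protein shares were 5.999%, 5.70% and 10.4% in pathological replicates 1 to 3. In physiological replicates 1 to 3 they were then 4.89%, 10.02% and 11.0%. With mitochondrial counts out, physiological replicate 3 had the highest share of its set. Pathological replicate 3 then lay between physiological replicates 2 and 3 and was no longer above both. Pathological replicates 1 and 2 stayed above physiological replicate 1.

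The balance between the subunits differed little between the pressures. The 60S rows took 3.69%, 3.57% and 5.71% of counts in pathological and 2.98%, 5.57% and 5.21% in physiological replicates 1 to 3. The 40S rows took 2.28%, 2.10% and 4.10% in pathological and 1.84%, 4.00% and 3.65% in physiological replicates 1 to 3. The ratio of 60S to 40S counts was 1.62, 1.70 and 1.39 in pathological and 1.62, 1.39 and 1.43 in physiological replicates 1 to 3, with means of 1.57 ± 0.158 and 1.48 ± 0.124 (SD, n = 3 each). The 3 libraries with little hepatocyte RNA had the 3 highest ratios, and the pressure groups overlapped.

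Each row was then compared between 12 and 1 mmHg. Gene levels from here on are CPM computed with totals scaled by the TMM method, and they are not divided by transcript length, so they are compared between libraries and not between genes. Of the 87 rows, 80 (75 symbols) passed the filter on low counts. None of these 80 passed an adjusted p of 0.05 by edgeR's quasi-likelihood test with Benjamini-Hochberg adjustment over all 12742 genes tested, and neither did any other gene (0% called). At an unadjusted p under 0.05 there were 0 of the 80 rows, against 0.259% of all genes. DESeq2 and limma-voom also called 0 ribosomal protein rows, and the smallest unadjusted p among the 80 was 0.233. The groups did not overlap for 1 of the 80 rows, Rps20, against 4.61% of all genes tested.

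The fitted log2 fold changes (pathological against physiological) were close to 0. Their median was -0.15 over the 80 rows, with quartiles of -0.31 and 0.02, while the median over all genes tested was 0.05, with quartiles of -0.57 and 0.60. In 23 rows the fold change was positive and in 57 negative, while 6693 of the 12742 genes tested were positive, and 69 rows lay within 0.5 of 0. All 80 confidence intervals (95%) spanned 0, with a median standard error of 0.69 against 1.72 over all genes. For 60S rows the median was -0.06 (17 of 47 positive) and for 40S rows -0.21 (6 of 33 positive). Rows whose annotated start carries the TOP motif had a median of -0.17 (22 rows), and those whose start does not had -0.21 (42 rows). These medians depend on single libraries: without pathological replicate 3 the median of the 80 or 81 rows then tested was -0.53, without physiological replicate 1 it was -0.42, and without physiological replicate 3 it was 0.18. With hepatocyte content as a covariate it was 0.18, and all genes then had a median of -0.24.

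**Figure D2:**
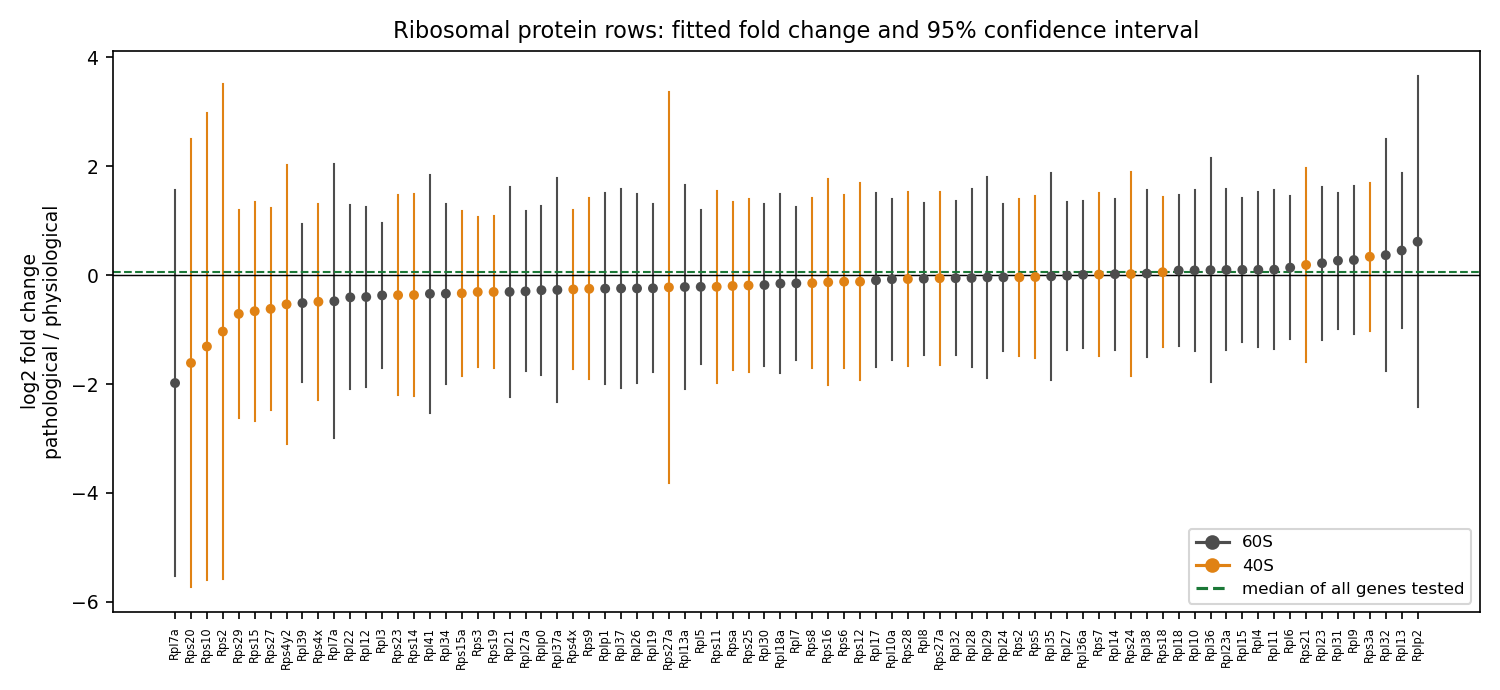
Points are the log2 fold changes (pathological over physiological) of 79 of the 80 ribosomal protein rows that passed the filter, in rising order, with 95% confidence intervals as vertical lines, and the dashed line is the median of all genes tested, 0.05. All intervals span 0, and the fold changes drawn run from -1.98 (a row of Rpl7a) to 0.62 (Rplp2).

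The ribosomal stalk binds the elongation factors. Rplp1, Rpl13a and Rplp0 were the 3 ribosomal protein rows with the highest mean CPM. Rplp0, the base of the stalk, had 1577, 1826 and 2791 CPM in pathological and 1307, 2765 and 3423 CPM in physiological replicates 1 to 3 (log2 fold change -0.28). Rplp1, which pairs with RPLP2 on the stalk, had 2070, 3083 and 4027 CPM in pathological and 1368, 3768 and 5757 CPM in physiological replicates 1 to 3 (log2 fold change -0.25). For both genes the lowest and the highest library were physiological. The row named Rplp2 had only 7.48, 10.4 and 45.8 CPM in pathological and 4.59, 13.1 and 23.8 CPM in physiological replicates 1 to 3 (log2 fold change 0.62), with a confidence interval of -2.42 to 3.65. Low counts for a constant part of the stalk are reported as they stand in the files, in which 5 of 6 libraries have fractional counts for that row.

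Next come the other proteins of the 60S subunit. Rpl3, which lies near the peptidyl transferase centre, had 792, 807 and 1101 CPM in pathological and 801, 1299 and 1390 CPM in physiological replicates 1 to 3 (log2 fold change -0.37). Rpl5 and Rpl11 join the 5S ribosomal RNA in a particle that also binds the p53 regulator MDM2. Rpl5 had 1535, 1646 and 1901 CPM in pathological and 1211, 2250 and 2433 CPM in physiological replicates 1 to 3 (log2 fold change -0.21). Rpl11 had 919, 1460 and 1406 CPM in pathological and 605, 1270 and 1654 CPM in physiological replicates 1 to 3 (log2 fold change 0.10). All 3 pathological values of Rpl5 and of Rpl11 lay inside the range of the physiological ones. Rpl10, a late-joining protein of the 60S subunit, had 1139, 1743 and 2015 CPM in pathological and 825, 1782 and 1999 CPM in physiological replicates 1 to 3 (log2 fold change 0.09). Its lowest library was physiological and its highest pathological.

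The least variable rows over the 6 libraries were Rpl31, Rpl6 and Rpl15, all of the 60S subunit, with SDs of 0.30, 0.32 and 0.33 on log2(CPM + 0.5). Rpl31 had 201, 298 and 211 CPM in pathological and 155, 219 and 216 CPM in physiological replicates 1 to 3 (log2 fold change 0.27). Rpl6 had 907, 1122 and 1273 CPM in pathological and 705, 1089 and 1204 CPM in physiological replicates 1 to 3 (log2 fold change 0.14). Rpl15 had 873, 1174 and 1075 CPM in pathological and 653, 1118 and 1145 CPM in physiological replicates 1 to 3 (log2 fold change 0.10). In each of these 3 the lowest library was physiological replicate 1, as in most ribosomal protein rows.

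Several other 60S rows varied more. Rpl41, the smallest ribosomal protein, had 719, 837 and 3510 CPM in pathological and 507, 2437 and 3477 CPM in physiological replicates 1 to 3 (log2 fold change -0.34), a 6.93-fold range with an SD of 1.24 on the log2 scale. Its 3 low values are those of the libraries with little hepatocyte RNA, in both pressure groups. Rpl13a (ENSRNOG00000062298), known also for a role outside the ribosome in silencing inflammatory messages, had 1189, 1777 and 3851 CPM in pathological and 885, 3217 and 3820 CPM in physiological replicates 1 to 3 (log2 fold change -0.22). Rpl39 (ENSRNOG00000043348), which lines the exit tunnel, had 252, 238 and 410 CPM in pathological and 214, 433 and 635 CPM in physiological replicates 1 to 3 (log2 fold change -0.51). Both genes repeat the order of Rpl41, with pathological replicate 3 and physiological replicates 2 and 3 on top. Rpl38, needed in mice for translation of Hox messages, had 321, 383 and 694 CPM in pathological and 204, 495 and 670 CPM in physiological replicates 1 to 3 (log2 fold change 0.03). Rpl22, which also binds RNA outside the ribosome, had 140, 183 and 400 CPM in pathological and 125, 307 and 527 CPM in physiological replicates 1 to 3 (log2 fold change -0.41). Among the 60S rows Rpl13 had the smallest p of those with a positive fold change, 0.484 unadjusted, with 225, 231 and 467 CPM in pathological and 131, 273 and 269.4 CPM in physiological replicates 1 to 3 (log2 fold change 0.45). Its pathological replicate 3 stood above the other 5 libraries.

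On the 40S subunit, Rpsa, known also as a laminin-binding protein, had 1366, 1782 and 2488 CPM in pathological and 1109, 2416 and 2938 CPM in physiological replicates 1 to 3 (log2 fold change -0.20). Rps6 (ENSRNOG00000049025), the protein that S6 kinase phosphorylates, had 1393, 1772 and 2820 CPM in pathological and 1046, 2388 and 3064 CPM in physiological replicates 1 to 3 (log2 fold change -0.12). Rps3, at the entry of the messenger RNA channel and also a DNA repair protein, had 788, 783 and 1124 CPM in pathological and 639, 1352 and 1346 CPM in physiological replicates 1 to 3 (log2 fold change -0.31). In these 3 genes pathological replicates 1 and 2 lay above physiological replicate 1 and below physiological replicates 2 and 3. Rps18, of the subunit's head, had 940, 1226 and 1488 CPM in pathological and 725, 1412 and 1381 CPM in physiological replicates 1 to 3 (log2 fold change 0.06). Rps27a (ENSRNOG00000034246), made as a fusion with ubiquitin, had 1093, 1404 and 2356 CPM in pathological and 769, 2103 and 2170 CPM in physiological replicates 1 to 3 in its main row (log2 fold change -0.06). Rps19, the gene most often mutated in human Diamond-Blackfan anaemia, had 622, 845 and 574 CPM in pathological and 436, 1073 and 1017 CPM in physiological replicates 1 to 3 (log2 fold change -0.31). Rps19 departed from the other 40S genes, since its pathological replicate 3 was the lowest of that group.

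Other 40S rows were among those with the lowest unadjusted p. Rps3a had 954, 996 and 1643 CPM in pathological and 673, 1130 and 1036 CPM in physiological replicates 1 to 3 (log2 fold change 0.34). Rps29, a small zinc-binding protein near the head, had 430, 502 and 1315 CPM in pathological and 314, 1498 and 1865 CPM in physiological replicates 1 to 3 (log2 fold change -0.71). Rps29 followed the order of Rpl41, with its 3 low values in the libraries with little hepatocyte RNA. Rps20, another protein of the subunit's head and the only row with groups that did not overlap, had 0.819, 0.660 and 0.849 CPM in pathological and 0.9501, 2.25 and 3.97 CPM in physiological replicates 1 to 3 (log2 fold change -1.61, interval -5.72 to 2.495). These are a handful of counts, fractional in every library, and 3.05% of all genes were likewise lower without overlap.

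Several rows may share reads with near-identical copies, which was not tested, and their values are uncertain. RSEM, the tool that the submitters' processing notes name for counting, divides a read that matches several genes among them. Counts were fractional in all 6 libraries for 68 of the 87 rows and in at least 1 library for 82. Of all values of a library, between 4.33% and 10.4% were fractional. That share is not a like measure, since only 10234 to 17189 genes of a library had a count and a 0 is never fractional. Of the rows that passed the filter, Rps10 and both rows of Rpl7a varied most, and their counts were fractional in all 6 libraries. The same holds for Rpl6 and Rpl15, which were among the least variable rows. Rps10, of the 40S head, had 3.85, 11.4 and 69.2 CPM in pathological and 1.67, 1.96 and 206 CPM in physiological replicates 1 to 3, an SD of 2.71 on the log2 scale. A row named as a like gene, Rps10l1, had 214, 252 and 490 CPM in pathological and 167, 378 and 604 CPM in physiological replicates 1 to 3, in the order seen for most ribosomal proteins. It was named after its values were seen.

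Rpl7a, another 60S protein, has 2 rows. ENSRNOG00000049097 had 0.285, 38.8 and 3.40 CPM in pathological and 33.3, 60.4 and 74.1 CPM in physiological replicates 1 to 3, which gave the lowest fitted fold change, -1.98 (interval -5.52 to 1.56, unadjusted p = 0.233, edgeR). ENSRNOG00000047737 had the same values in 5 libraries and 78.1 CPM in pathological replicate 1, with a fold change of -0.48. The rows thus differed in a single library, pathological replicate 1, with expected counts of 8.22 and 2194. The gap between their fold changes rests on that library, and without it both rows gave -1.39. Rps4x also has 2 well-counted rows. ENSRNOG00000003201 had 652, 646 and 988 CPM in pathological and 433, 1166 and 1141 CPM in physiological replicates 1 to 3 (log2 fold change -0.26), and ENSRNOG00000029574 had 595, 460 and 1839 CPM in pathological and 598, 1705 and 1752 CPM in physiological replicates 1 to 3 (log2 fold change -0.49). The second row of Rps27a, ENSRNOG00000004426, had at most 30.9 CPM in pathological and 24.6 CPM in physiological libraries. With 1 row kept for each symbol, the one with the highest mean CPM, the median log2 fold change was -0.13.

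The 7 rows that did not pass the filter were almost all further copies. They were second rows of Rps6, Rpl13a and Rpl39, 3 of the rows of Rpl21, and Rpl35a. The second row of Rps6 had 5.20 CPM in pathological replicate 1 and 1.97 CPM in physiological replicate 1 and was 0 elsewhere, and that of Rpl39 had 9.20 and 0.377 CPM in pathological replicates 2 and 3 and was 0 in the other libraries, all physiological ones included. That of Rpl13a had 0.710 CPM in physiological replicate 3 and was 0 elsewhere. The 3 rows of Rpl21 stayed at or under 0.566 CPM in pathological and 1.85 CPM in physiological libraries. Rpl35a was at 0 in every library. By depth alone, a 0 allows up to 0.263 CPM in the shallowest pathological and 0.336 CPM in the shallowest physiological library (3 counts of the library's unscaled total). Whether reads of Rpl35a were assigned to other rows was not tested, and the bound does not cover it. Outside the 87 rows, Rps19bp1 had 56.9, 56.5 and 35.6 CPM in pathological and 43.2, 77.3 and 8.66 CPM in physiological replicates 1 to 3 (log2 fold change 0.21), and its highest library was physiological replicate 2.

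Most ribosomal protein rows shared an order of the libraries. Physiological replicate 1 was the lowest library for 70 of the 80 rows. The highest was physiological replicate 3 for 38 rows and pathological replicate 3 for 34. In 61 rows (76.2%), pathological replicates 1 and 2 and physiological replicate 1 were all below the other 3 libraries, against 18.3% of all genes tested. With unscaled totals this held for 58 rows against 15.6% of genes, and with totals free of mitochondrial-genome genes for 65 rows against 17.0%. Hepatocyte-list counts were low in the same 3 libraries, and their part in this order was not tested. Inside that set, pathological replicates 1 and 2 were both above physiological replicate 1 in 73 of the 80 rows, against 30.6% of all genes, and in 59 rows against 20.3% with unscaled totals. In the other set, pathological replicate 3 was above both physiological libraries in 34 rows and below both in 21. These counts, and those of the lowest and highest library, have no share of all genes beside them. They are therefore not read as a trait of ribosomal protein genes.

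**Figure D3:**
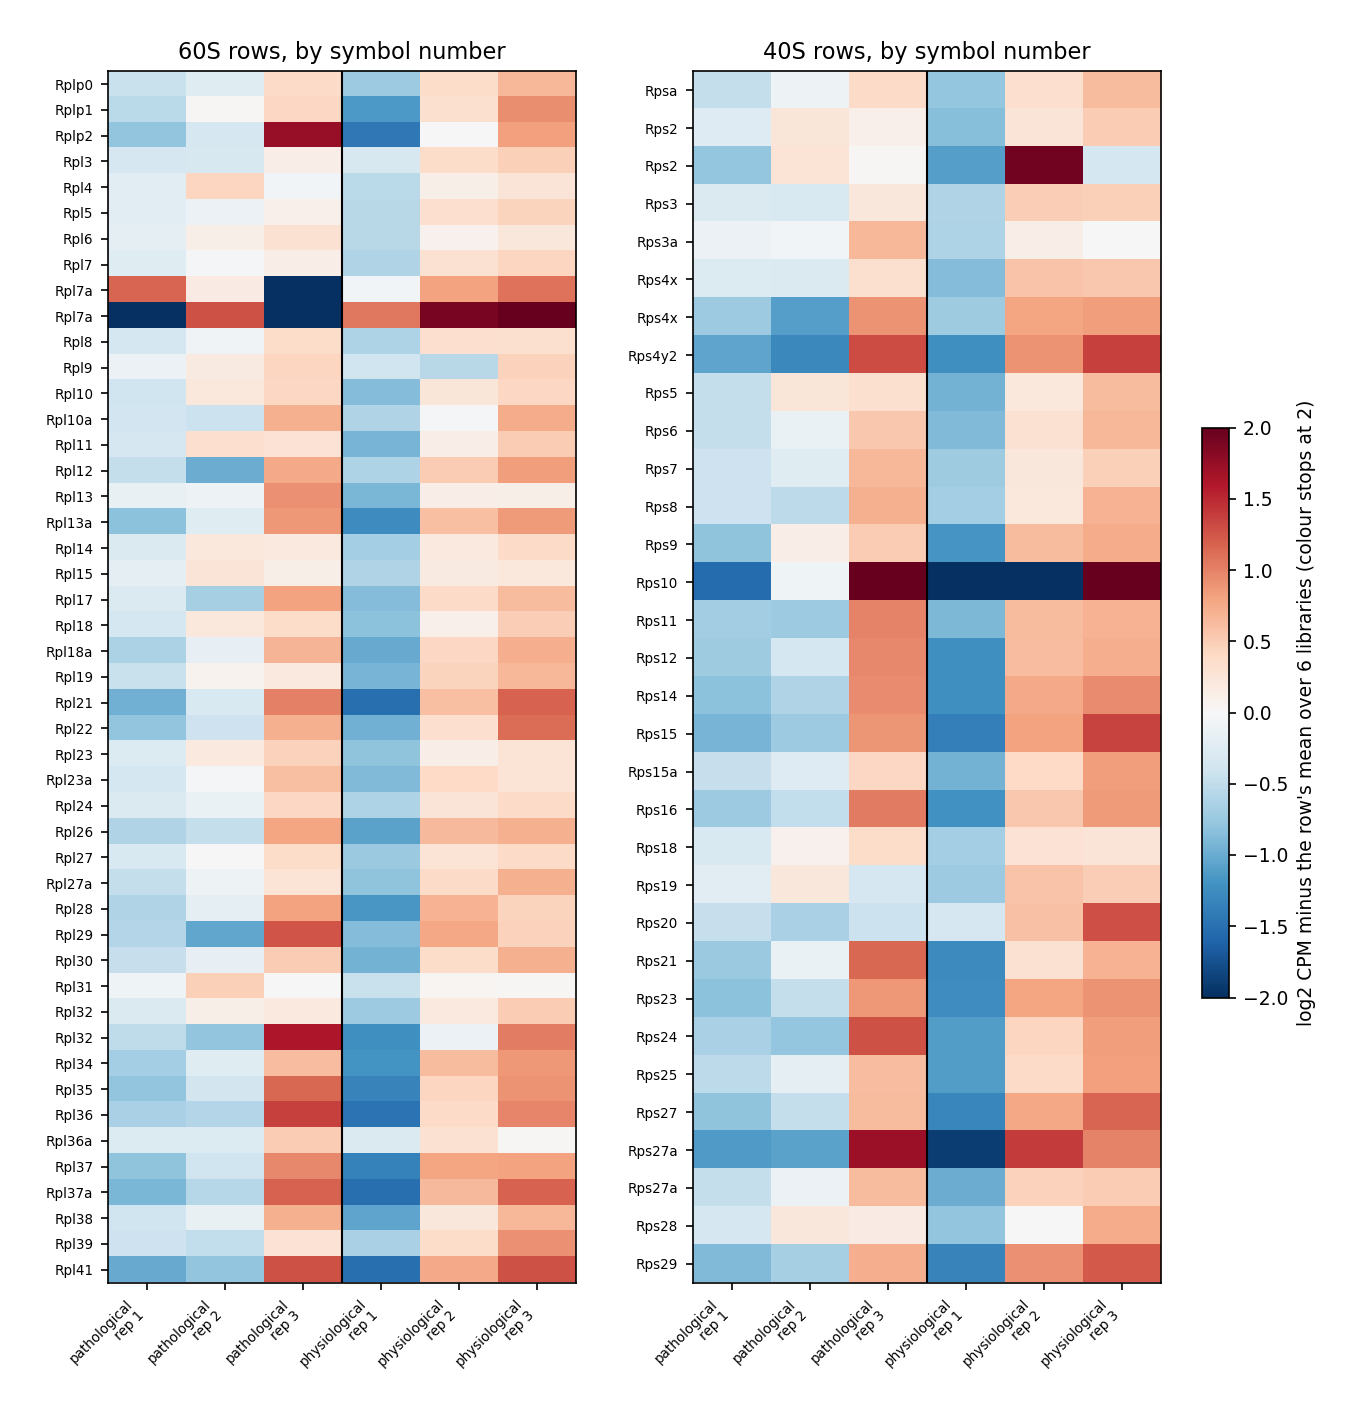
Each cell is the log2 level (CPM + 0.5) of a row in a library minus that row's mean over the 6 libraries, for 60S rows (left) and 40S rows (right) in order of symbol number, with pathological libraries left of the black line and physiological libraries right of it. The median deviation is below 0 (blue) in pathological replicates 1 and 2 and physiological replicate 1. Pathological replicate 2 is mixed, with 24 of 80 rows above their own mean. Physiological replicate 1 is the lowest for 70 of 80 rows.

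Most ribosomal protein genes moved together between libraries, least so in pathological replicate 2. The median deviation of a row from its own mean over the 6 libraries, on the log2 scale, was -0.47, -0.17 and 0.61 in pathological and -0.89, 0.38 and 0.70 in physiological replicates 1 to 3. In pathological replicate 1 and physiological replicate 1, 79 of the 80 rows lay below their own mean, and in physiological replicate 3 only 2 did. Pathological replicate 2 was mixed, with 56 rows below their own mean and 24 above. These counts have no share of all genes beside them. The SD of a row over the 6 libraries had a median of 0.67, against 1.62 over all genes tested. At a mean of 100 CPM or more, where counting error is small, it was 0.62 for 69 ribosomal protein rows and 0.88 for 1907 genes.

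The size of the deviation went with the number in the gene's symbol, which tends to be higher for smaller proteins, since the proteins were first numbered by their place on gels. In 23 rows numbered 10 or lower, the median deviation was -0.34, -0.08 and 0.37 in pathological and -0.62, 0.30 and 0.52 in physiological replicates 1 to 3. In 23 rows numbered 26 or higher it was -0.58, -0.36 and 0.71 in pathological and -1.06, 0.44 and 0.74 in physiological replicates 1 to 3. High-numbered genes thus lay farther from 0 in each of the 6 libraries, with a median SD of 0.81 against 0.54. Across the 44 numbered 60S rows with at least 10 CPM, Spearman's rho of number and deviation was -0.44, -0.47 and 0.54 in pathological and -0.60, 0.24 and 0.29 in physiological replicates 1 to 3. Across the 30 40S rows it was -0.30, -0.07 and 0.17 in pathological and -0.47, 0.24 and 0.31 in physiological replicates 1 to 3. These rho values run across genes of the same library, which are not independent, and the deviations of a row sum to 0 over the libraries. The median fold change between the pressures was -0.15 for the low-numbered and -0.07 for the high-numbered rows, within the spread of the rows.

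**Figure D4:**
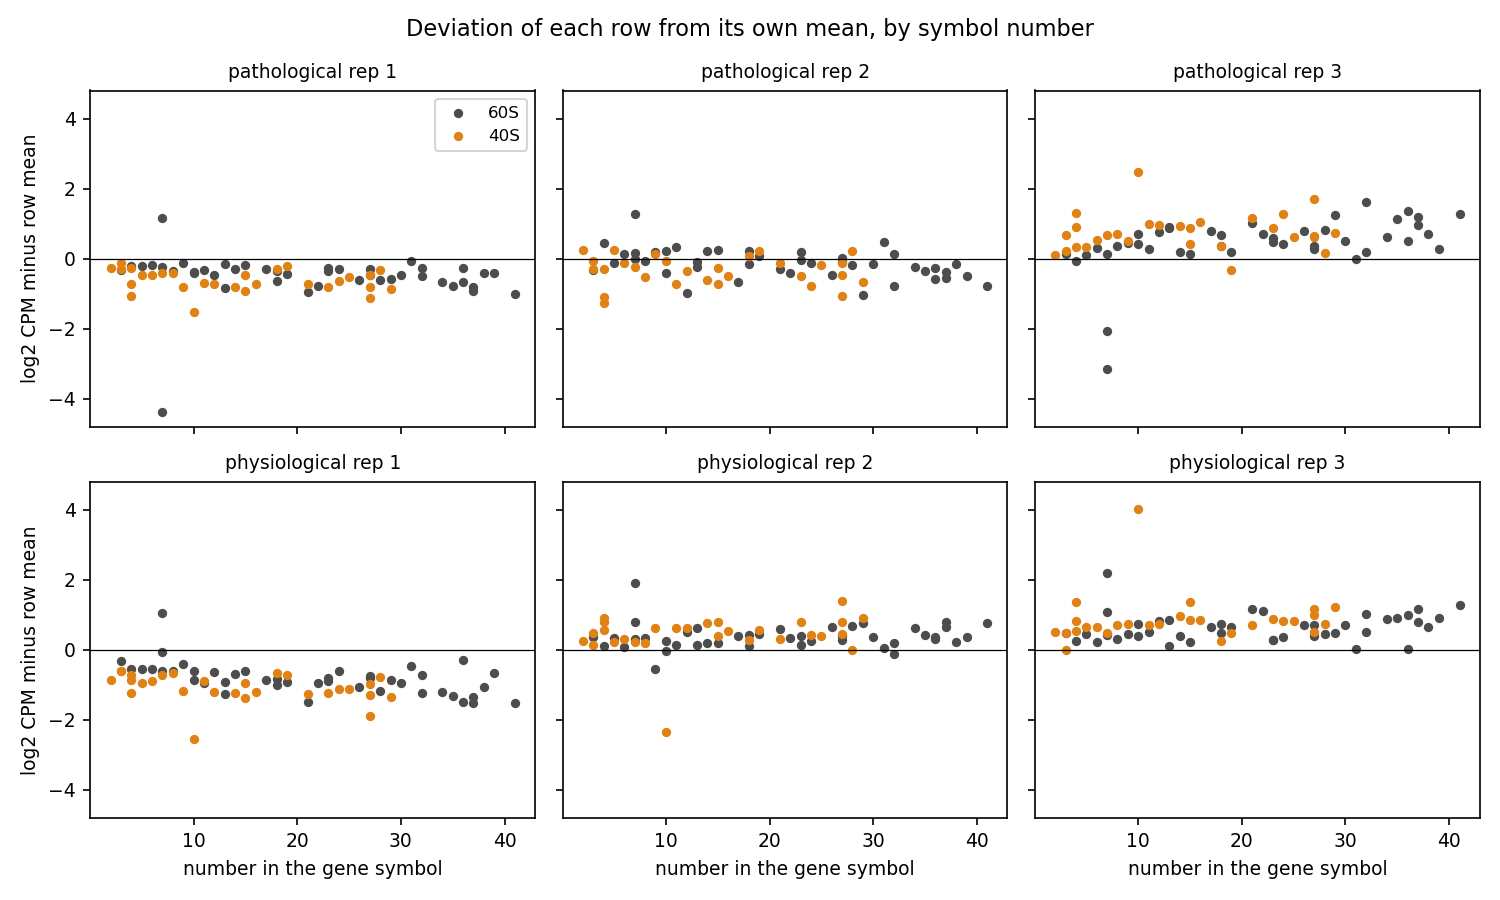
Each point is a ribosomal protein row with at least 10 CPM, plotted by the number in its symbol and by its log2 level minus its mean over the 6 libraries, with 1 panel per library, pathological libraries above and physiological libraries below. Points fall with the number in pathological replicates 1 and 2 and physiological replicate 1 (rho of -0.44, -0.47 and -0.60 for 60S rows) and climb in the other 3 libraries (0.54, 0.24 and 0.29).

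Other genes of the translation machinery were read from lists of symbols, and none of their members passed an adjusted p of 0.05. Rack1, a scaffold protein of the 40S head, had 1512, 1821 and 1268 CPM in pathological and 1308, 1452 and 1549 CPM in physiological replicates 1 to 3 in its main row (log2 fold change 0.09), without the order of most ribosomal proteins. A second row of Rack1 had an unadjusted p of 0.426, with at most 15.3 CPM in pathological and 3.46 CPM in physiological libraries. Among 5 like paralogs tested, 1 fold change was positive and 4 were negative. Their best counted member was Rpl36al, with 135, 196 and 469 CPM in pathological and 116, 295 and 394 CPM in physiological replicates 1 to 3. Rpl10l had their smallest p, 0.198 unadjusted, with at most 2.81 CPM in pathological and 32.1 CPM in physiological libraries.

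The factors that work with the ribosome are given by list. All 6 elongation factors had positive fold changes, with a median of 0.18, and their share of counts was 1.14%, 1.19% and 1.13% in pathological and 1.12%, 1.22% and 0.735% in physiological replicates 1 to 3. Eef1a1, which brings aminoacyl-tRNA to the ribosome, had 4728, 6455 and 7675 CPM in pathological and 4404, 7983 and 5883 CPM in physiological replicates 1 to 3 (log2 fold change 0.05). Eef2, the translocase, had 3190, 4722 and 1992 CPM in pathological and 2975, 2134 and 1388 CPM in physiological replicates 1 to 3 (log2 fold change 0.61, unadjusted p = 0.402, edgeR). Eef2 was highest in the 3 libraries in which most ribosomal protein genes were lowest.

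Initiation and biogenesis factors had mostly positive fold changes. Both lists took their largest shares in pathological replicates 1 and 2 and physiological replicate 1, the libraries with little hepatocyte RNA. The part of that split in the fold changes was not tested. Of 31 initiation factors, 24 fold changes were positive and 7 negative, with a median of 0.41, and the list took 1.498%, 1.89% and 0.709% of counts in pathological and 1.38%, 0.909% and 0.790% in physiological replicates 1 to 3. Eif1, which guards the choice of start codon, had 1282, 1991 and 1196 CPM in pathological and 882, 1261 and 1590 CPM in physiological replicates 1 to 3 (log2 fold change 0.26). Eif4a2, an RNA helicase with the smallest p of the list, had 577, 1493 and 215 CPM in pathological and 398, 344 and 259 CPM in physiological replicates 1 to 3 (log2 fold change 1.19, unadjusted p = 0.163, edgeR). Of 36 ribosome biogenesis factors, 31 were positive and 5 negative, with a median of 0.60, and the list took 0.731%, 1.13% and 0.271% of counts in pathological and 0.609%, 0.356% and 0.323% in physiological replicates 1 to 3. Ncl, a nucleolar protein of ribosomal RNA synthesis, had 1705, 4561 and 942 CPM in pathological and 1320, 922 and 1128 CPM in physiological replicates 1 to 3 (log2 fold change 1.10). Nop58, a core protein of the box C/D particles that guide ribosomal RNA methylation, had 379, 1144 and 112 CPM in pathological and 247, 207 and 221 CPM in physiological replicates 1 to 3 (log2 fold change 1.27, unadjusted p = 0.166, edgeR). For Eif4a2, Ncl and Nop58, pathological replicates 1 and 2 lay above all 3 physiological libraries, and pathological replicate 3 lay below 2 or more of them.

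**Figure D5:**
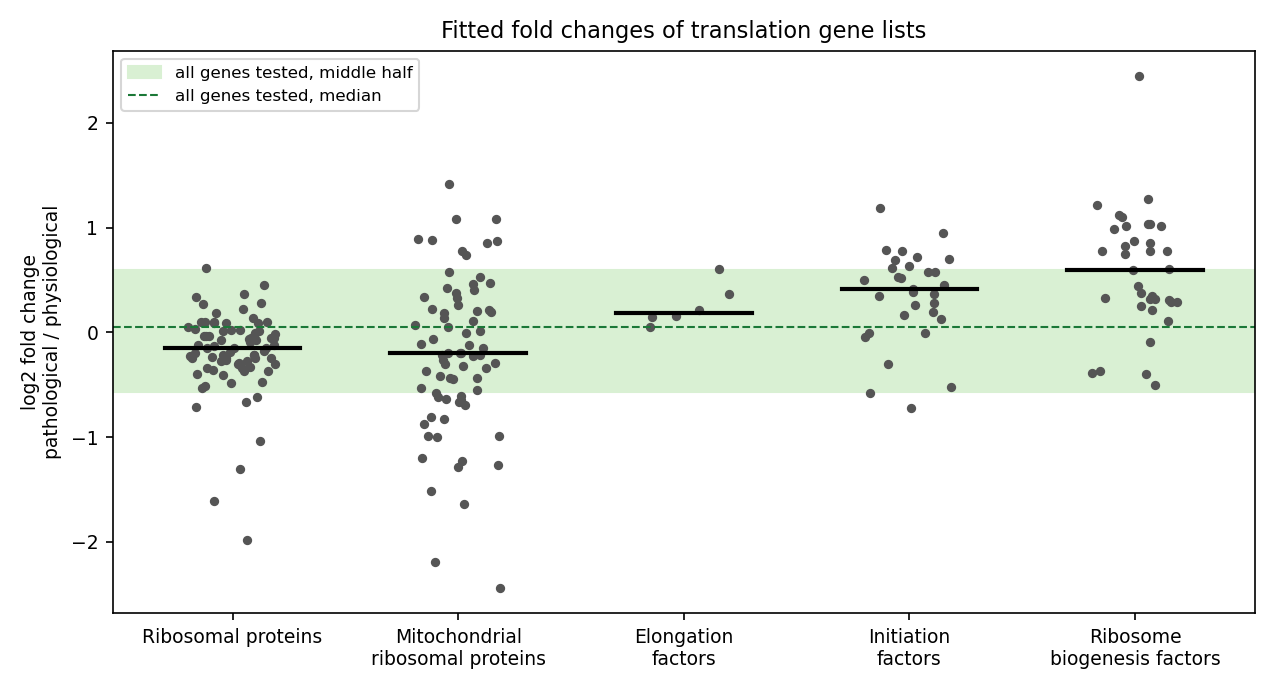
Points are the log2 fold changes (pathological over physiological) of the tested genes in 5 lists, black bars are list medians, the dashed line is the median of all genes tested (0.05) and the green band runs between its quartiles (-0.57 and 0.60). Medians are -0.15 for ribosomal proteins, -0.20 for mitochondrial ribosomal proteins, 0.18 for elongation factors, 0.41 for initiation factors and 0.60 for biogenesis factors, and no single gene passed the test.

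Other messages are known to carry the TOP motif, though by the search above the annotated starts of Tpt1 and Npm1 carry no such run. Of 5 genes listed for such messages, 4 fold changes were positive and 1 was negative, with a median of 0.40. Tpt1, which encodes a growth-related calcium-binding protein, had the most counts, with 1961, 3414 and 11495 CPM in pathological and 1369, 13578 and 13082 CPM in physiological replicates 1 to 3 (log2 fold change -0.73). Npm1, a nucleolar chaperone, had the smallest p of these (0.259, unadjusted, edgeR), with 1174, 3053 and 572 CPM in pathological and 735, 727 and 1086 CPM in physiological replicates 1 to 3 (log2 fold change 0.91). Tpt1 followed the order of Rpl41 and Npm1 did not. Among 12 regulators of mTORC1 and of TOP messages, 10 were positive and 2 negative, with a median of 0.38 and a median standard error of 1.27. Rheb, the small GTPase that activates mTORC1, had both the most counts and the smallest p of these, with 246, 540 and 195 CPM in pathological and 192, 217 and 206 CPM in physiological replicates 1 to 3 (log2 fold change 0.68). The list of regulators also took its largest shares in pathological replicates 1 and 2 and physiological replicate 1.

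Proteins of the mitochondrial ribosome, encoded in the nucleus, had a median fold change on the same side of 0 as the cytosolic ones. Of 73 tested, 29 fold changes were positive and 44 negative, with a median of -0.20, and the list took 0.200%, 0.184% and 0.366% of counts in pathological and 0.209%, 0.332% and 0.301% in physiological replicates 1 to 3. Mrpl17 had the most counts, with 78.6, 135 and 234 CPM in pathological and 83.9, 191 and 244 CPM in physiological replicates 1 to 3 (log2 fold change -0.22). Mrpl13 had the smallest p, 0.173 unadjusted, with 37.0, 35.2 and 41.6 CPM in pathological and 25.7, 87.0 and 154 CPM in physiological replicates 1 to 3 (log2 fold change -1.23). The shares of both ribosomes were higher in pathological replicate 3 and physiological replicates 2 and 3.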

How the data were processed

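Each deposited file holds the expected counts of 1 library by gene, which are estimated and unnormalized, per the file headers. The submitters' processing notes name STAR, RSEM and limma. Tool versions, genome build, annotation and use of strand were not given in these sources. Antisense and overlapping genes are therefore uncertain. Library totals of 8925149 to 24025406 counts limit precision for low rows.

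Expected counts were rounded to whole numbers and fitted for all genes with edgeR 4.0.16 in R 4.3.3 (quasi-likelihood F-test, two-sided, TMM scaling, filterByExpr, no covariate), with p-values adjusted by Benjamini-Hochberg and a threshold of 0.05. The common biological coefficient of variation was 1.39. The fit was run on simulated counts that varied far less between libraries than these do, so that run does not show its power here. Levels are CPM with TMM-scaled totals. Shares are percents of unscaled expected counts, with no test. Deviations used log2(CPM + 0.5). Replicates were numbered in deposition order. Every pair of libraries differed beyond counting noise (chi-square divided by degrees of freedom, 74.9 or more).

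Members and lists were chosen with earlier results of these data known. Named were members fixed by role, the 3 smallest p in each direction, the 3 highest and lowest means, the 3 most and least variable, rows without overlap and, per other list, the highest mean and smallest p. Alternatives were RLE factors, unscaled totals, totals without mitochondrial-genome genes, 2 other filters, a hepatocyte covariate, DESeq2 1.42.0, limma-voom (limma 3.58.1) and leaving out each library. Promoter sequences were matched by symbol. Some genes these rules name are not reported here, and they are not drawn in the figures.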

Additional observations from a re-analysis of the deposited data

How the results depend on the processing

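No paired analysis was made because the labels give the groups no shared replicate numbers. The labels number the physiological libraries 2, 11 and 22 and the pathological libraries 3, 9 and 23. No label ties these numbers to an animal or a device run. No ribosomal protein row was called under any of the 14 alternatives to the fit. DESeq2 called 1 gene of all, Ccnj (0, 0 and 0.0944 CPM in pathological, 14.2, 4.03 and 49.8 CPM in physiological replicates 1 to 3), and edgeR and limma-voom called 0. Without pathological replicate 2, a single ribosomal protein row, Rpl7a ENSRNOG00000049097, had an unadjusted p under 0.05 (0.0197, edgeR). That row differs from the other Rpl7a row only in pathological replicate 1, which this fit keeps. The median log2 fold change of ribosomal protein rows lay between -0.23 and 0.18 over the 8 other settings and between -0.53 and 0.18 when libraries were left out. The median over all genes moved with the scaling, to 0.15 with RLE factors and -0.09 with totals free of mitochondrial-genome genes. The ribosomal protein median minus that of all genes lay between -0.21 and -0.10 in the fits to all libraries, except with limma-voom (0.02) and the hepatocyte covariate (0.42). Chosen after seeing the data, the 3 libraries with the least hepatocyte RNA alone gave a ribosomal protein median of 0.61 and the 3 with the most gave 0.09. Each of these medians rests on 1 library in 1 arm, has no test and has no median of all genes beside it. In the first set the scaling matters: pathological replicates 1 and 2 were both above physiological replicate 1 in 73 rows with TMM and in 59 with unscaled totals. The difference in share lay between -2.06 and 0.313 percentage points when libraries were left out, and was -1.29 without mitochondrial-genome counts. Signs turned as follows, in log2 units. RLE factors and DESeq2 both gave 0.069 for Rps27a ENSRNOG00000034246 and 0.0025 for Rps6. Totals without mitochondrial-genome genes gave -0.043 for Rps18, -0.042 for Rpl38, -0.0068 for Rpl10 and -0.0030 for Rpl15. The hepatocyte covariate gave 0.059 for Rps4x ENSRNOG00000003201, 0.35 and 0.27 for Rps27a ENSRNOG00000004426 and ENSRNOG00000034246, 0.18 for Rplp1, 0.078 for Rpsa, 0.13 for Rpl41, 0.18 for Rps6, 0.22 for Rpl13a and 0.048 for Rps10. Limma-voom gave 0.047 for Rps27a ENSRNOG00000034246 and 1.13 for Rps10. Over the fits that left out a library, values lay between -1.39 and 0.082 for Rpl7a ENSRNOG00000047737, -0.14 and 0.32 for Rpl10, -0.61 and 1.25 for Rplp2, -0.14 and 0.43 for Rpl11, -0.96 and 0.15 for Rpl22, -0.13 and 0.25 for Rps18, -1.44 and 0.19 for Rpl41, -0.044 and 0.25 for Rpl15, -0.81 and 0.14 for Rpl13a, -0.44 and 0.087 for Rpsa. They lay between -3.17 and 3.93 for Rps10, -0.36 and 0.41 for Rpl38, -0.44 and 0.21 for Rps6, -0.54 and 0.015 for Rplp0, -0.57 and 0.25 for Rplp1, -1.90 and 0.36 for Rps27a ENSRNOG00000004426 and -0.41 and 0.18 for its other row. The cause was not tested. With 3 libraries a group, intervals of single rows were wide, and rows under 10 CPM were also limited by depth.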

Other observations

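Rows kept out of the ribosomal protein genes by their names were few in counts. The 19 rows named as like genes took 0.103%, 0.0970% and 0.187% of counts in pathological and 0.0862%, 0.141% and 0.183% in physiological replicates 1 to 3. The 15 rows named -ps took 0.0774%, 0.0791% and 0.125% of counts in pathological and 0.0653%, 0.133% and 0.119% in physiological replicates 1 to 3. Of 8 Rps6k kinase rows tested, 5 fold changes were positive and 3 negative, and none passed the adjusted p of edgeR. All 13 genes of the mitochondrial genome had negative fold changes, with a median of -1.54 and a median standard error of 1.49, and none passed the adjusted p of edgeR.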
